A study of Mus musculus with 7 samples.

Results

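The tissue inhibitors of metalloproteinases (TIMPs) and a set of proteases that cut extracellular matrix were followed in RNA-seq libraries of the retinal pigment epithelium (RPE), the pigmented layer between the photoreceptors and the choroid. The members were chosen by gene symbol: Timp1, Timp2, Timp3, Timp4, Mmp2, Mmp9, Mmp14, Mmp15, Htra1 and Adamts1. All 10 were found, on 1 row each of the 21861 rows of the deposited count table, and all 10 passed the filter on low counts. The libraries came from RPE of aged mice that had been given an adeno-associated virus (AAV) and were collected 12 weeks later. In 3 libraries the vector carried GFP, and in 4 it carried GSTA4, a glutathione transferase that conjugates reactive lipid aldehydes. Both groups are aged and vector-treated, so neither stands for young or untreated tissue. The labels state no strain, sex, age in weeks, promoter or pooling of animals, and nothing in them says that the replicates came from separate mice. The p-values thus measure the spread between these libraries, part of which may be technical. Within each group, libraries differed in Y-linked counts, as given below.

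The RPE rests on Bruch's membrane, a layered sheet of collagen, elastin, laminin and proteoglycan that it both builds and turns over. Matrix metalloproteinases (MMPs) and ADAMTS proteases cut these components and are inhibited by TIMPs, which bind the zinc-containing active site. TIMP3 differs from the other TIMPs in that it binds tightly to the matrix. Mutations of human TIMP3 cause Sorsby fundus dystrophy, and the region holding HTRA1 is associated with age-related macular degeneration.

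The 4 members whose AAV-GSTA4 and AAV-GFP libraries did not overlap were Timp3, which was higher in AAV-GSTA4, and Mmp14, Htra1 and Adamts1, which were lower. Their promoters are shown as the 250 bases before the RefSeq start on GRCm38.p6, read 5′ to 3′ on the gene's strand. The choice rests only on this lack of overlap, which 12.0% of all 15075 tested genes showed. In edgeR, 0 of the 10 members had an adjusted p under 0.05. Capitals mark GC boxes (GGGCGG) and the TATA motif (TATAAA), on either strand.
Timp3 (chr10:86300162-86300411, plus strand): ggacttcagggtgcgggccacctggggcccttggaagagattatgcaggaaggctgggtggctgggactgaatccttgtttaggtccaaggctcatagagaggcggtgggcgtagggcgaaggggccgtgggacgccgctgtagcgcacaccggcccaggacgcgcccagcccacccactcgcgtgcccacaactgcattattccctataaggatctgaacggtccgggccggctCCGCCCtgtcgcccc
Mmp14 (chr14:54431348-54431597, plus strand): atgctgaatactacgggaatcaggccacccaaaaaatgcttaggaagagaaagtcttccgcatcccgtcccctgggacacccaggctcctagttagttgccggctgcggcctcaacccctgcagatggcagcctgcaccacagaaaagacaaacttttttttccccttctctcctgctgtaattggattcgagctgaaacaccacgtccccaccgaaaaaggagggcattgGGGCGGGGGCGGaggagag
Htra1 (chr7:130935953-130936202, plus strand): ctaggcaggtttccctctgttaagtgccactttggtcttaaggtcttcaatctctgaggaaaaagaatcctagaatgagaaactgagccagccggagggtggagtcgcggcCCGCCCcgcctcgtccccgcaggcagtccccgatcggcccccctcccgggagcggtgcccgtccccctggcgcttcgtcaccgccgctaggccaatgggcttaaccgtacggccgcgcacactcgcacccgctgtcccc
Adamts1 (chr16:85803114-85803363, minus strand): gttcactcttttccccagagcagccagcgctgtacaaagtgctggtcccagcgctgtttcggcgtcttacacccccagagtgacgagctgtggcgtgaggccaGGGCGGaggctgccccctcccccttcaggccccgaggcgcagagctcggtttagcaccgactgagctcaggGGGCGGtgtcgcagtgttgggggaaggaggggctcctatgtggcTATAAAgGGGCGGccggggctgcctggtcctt
RefSeq promoters of this length were at hand for 8 members. A GC box occurred in 7 of these 8 and in 32.7% of 32851 promoters of the same length, and TATAAA occurred in 1 of the 8 (Adamts1) and in 12.4% of all. In the Mmp14 window the 2 GC boxes are adjacent, and in the Adamts1 window the TATA motif lies beside the third GC box. The AP-1 motif TGANTCA, the E-box forms CACGTG and CATGTG and the OTX motif GGATTA, searched on both strands, were found in 0 of the 8, and in 6.75%, 17.6% and 6.25% of all promoters. These matches describe the sequence only.

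Library totals ranged from 15329181 to 28998964 counts. The human transgene row, hGSTA4, held 1 to 3 counts in the AAV-GFP libraries and 45 to 5239 in the AAV-GSTA4 libraries. The GFP row d2EGFP was at 4.61, 153 and 113 CPM (counts scaled to a common library size) in AAV-GFP replicates 1 to 3. In AAV-GSTA4 it was at 0.411 to 8.58 CPM. The groups overlapped because AAV-GFP replicate 1 lay below AAV-GSTA4 replicate 1, the highest of its group. AAV-GFP replicate 3 stood apart, with a mean correlation of log2 CPM with the others of 0.838, against 0.910 to 0.926 for each other library. The RPE label was checked against 10 RPE markers: 9 were present in every library at 142 CPM or more, whereas Best1 was at 1.15 to 3.32 CPM. In bulk RNA, fewer cells of a type and less RNA per cell cannot be told apart.

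The members spanned more than 3 orders of magnitude in level. On a per-length scale, CPM per kilobase of annotated exon averaged over the 7 libraries, the order was Timp3 at 496, Timp2 at 20.1, Htra1 at 6.71, Adamts1 at 5.64, Mmp2 at 3.18, Timp1 at 2.21, Mmp14 at 1.45, Mmp15 at 0.992, Mmp9 at 0.871 and Timp4 at 0.331. The ranges of Timp3 (186 to 808) and Timp2 (11.3 to 25.2) did not meet. From Timp2 downwards every neighbour in the order overlapped with the next across libraries, so that part of the order was not resolved beyond their spread. Timp3 ranked between 47 and 128 of 21403 genes in each library on this scale. It made up 92.1% to 93.7% of the summed TIMP level in AAV-GFP and 96.1% to 97.2% in AAV-GSTA4.

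**Figure D1:**
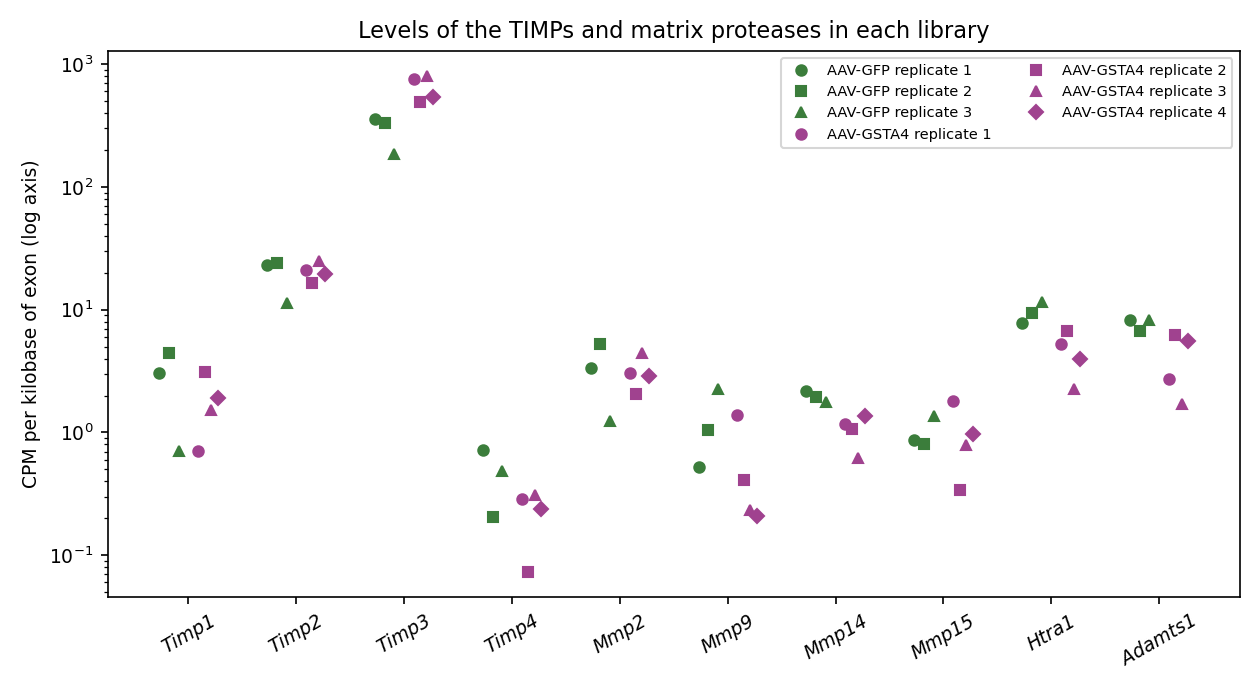
Level of each member in each library, as CPM per kilobase of exon on a log axis, with AAV-GFP in green and AAV-GSTA4 in purple. Timp3 lies above every other member in all 7 libraries, and its AAV-GSTA4 points lie above its AAV-GFP points.

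Across 15075 tested genes, edgeR's quasi-likelihood test called 0 at an adjusted p under 0.05, a share of 0.0%, and so 0 of the 10 members. At an unadjusted p under 0.05 there were 4 members, against 11.9% of all tested genes: 1 was higher, against 5.27%, and 3 were lower, against 6.63%. The groups did not overlap for the same 4 members, against 12.0% of all tested genes: again 1 higher, against 6.44%, and 3 lower, against 5.61%. At its adjusted threshold DESeq2 called 199 of the 19446 genes to which it gave a p-value, 1 of them a member, Timp3. In edgeR, 8 of the 10 members had a fold change below 0 on the log2 scale, and the median of the members was -0.74, beside -0.07 for all tested genes. With library totals in place of trimmed-mean (TMM) scaling, the median of all genes was -0.37.

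Among the inhibitors, Timp3 lies on chromosome 10 (86300372 to 86349506, plus strand, GRCm38), inside Syn3 on the opposite strand. It reached 2891, 2726 and 1516 CPM in AAV-GFP replicates 1 to 3 and 6135, 4009, 6582 and 4423 CPM in AAV-GSTA4 replicates 1 to 4. The lowest AAV-GSTA4 library, replicate 2, thus lay above the highest AAV-GFP library, replicate 1. The means were 2378 ± 751 CPM for AAV-GFP (SD, n = 3) and 5287 ± 1262 CPM for AAV-GSTA4 (SD, n = 4). edgeR estimated a log2 fold change of 1.15 ± 0.36 (SE) at an adjusted p of 0.363, against 0.0262 in DESeq2. Across all alternatives the adjusted p ranged from 0.0262 to 0.865. The exact permutation test of the difference in mean log2 CPM, two-sided over 35 relabellings, gave p = 0.0286, the smallest value that 3 against 4 libraries allow. As a share of all counts, Timp3 took 0.286%, 0.286% and 0.206% in AAV-GFP and 0.592%, 0.362%, 0.571% and 0.413% in AAV-GSTA4. The widest 95% Wilson interval, which covers counting error only, was 0.588% to 0.595%, for AAV-GSTA4 replicate 1. Timp3 shares 1733 bases, or 21.3% of its exon bases, with exons of Syn3. The library kit marks no strand, so reads there cannot be told apart by strand. The Syn3 row held 89 to 201 counts per library where Timp3 held 31560 to 119893. How reads in the shared bases were counted is not given, so these rows do not show where such reads went.

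In AAV-GSTA4 replicates 1 to 4, hGSTA4 was at 222, 251, 2.64 and 43.7 CPM, beside Timp3 at 6135, 4009, 6582 and 4423 CPM. Replicate 3 had the most Timp3 and the least hGSTA4, and replicate 2 the reverse. Replicate 1, with more hGSTA4 than replicate 4, also had more Timp3. Timp3 moved beside the RPE markers. Their summed level was 69271, 54152 and 22165 CPM in AAV-GFP and 79755, 59945, 108206 and 88978 CPM in AAV-GSTA4, with 8 of the 10 higher and 2, Pmel and Tyrp1, lower. Rgr alone made up most of this sum, at 12273 to 37709 CPM in AAV-GFP and 34371 to 61493 CPM in AAV-GSTA4. For each 100 CPM of RPE markers there were 4.17, 5.03 and 6.84 CPM of Timp3 in AAV-GFP and 7.69, 6.69, 6.08 and 4.97 CPM in AAV-GSTA4. On this scale the groups overlapped. The summed Mueller glia and astrocyte markers were also higher without overlap, at 3860 to 5599 CPM in AAV-GFP and 6065 to 9492 CPM in AAV-GSTA4, with 3 of 5 higher, 2 lower and none at 0. Apoe, which other cell types also express, made up most of that sum, at 3292 to 5111 CPM and 5595 to 8983 CPM. Each other gene of that list, Glul, Slc1a3, Gfap and Aqp4, overlapped between the groups, with Glul at 341 to 389 CPM and 378 to 486 CPM. The part of either marker level in the Timp3 difference was not tested beyond these values.

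**Figure D2:**
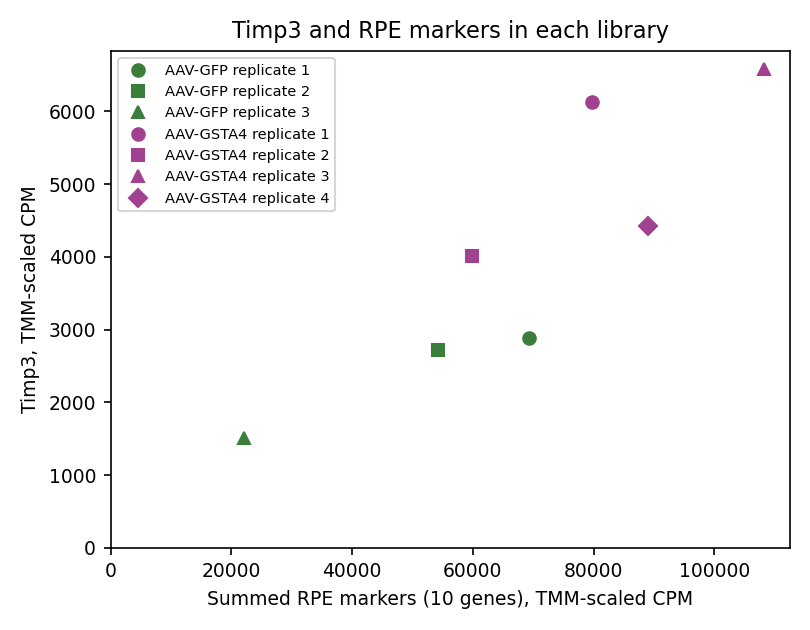
Timp3 against the summed level of the 10 RPE markers, both in TMM-scaled CPM, 1 point per library, with AAV-GFP in green and AAV-GSTA4 in purple. AAV-GFP replicate 3 is lowest on both axes and AAV-GSTA4 replicate 3 highest on both.

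The 3 genes with the pattern most like that of Timp3, by Pearson correlation of log2 CPM over the 7 libraries, were Gnpda1 (r = 0.996), Stard13 (r = 0.995) and Polr3e (r = 0.995). These correlations are descriptive and are taken over both groups in the same libraries. Stard13 was at 37.1 ± 10.6 CPM for AAV-GFP (SD, n = 3) and 89.1 ± 21.5 CPM for AAV-GSTA4 (SD, n = 4). None of the 3 passed the adjusted threshold in edgeR, each with an adjusted p of 0.363, whereas Stard13 had an adjusted p of 0.0126 in DESeq2.

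Timp2, a soluble inhibitor that also helps MMP14 to activate the precursor of MMP2, did not separate the groups. It was at 89.9, 93.6 and 44.1 CPM in AAV-GFP and 81.7, 64.4, 98.1 and 76.3 CPM in AAV-GSTA4. Both the highest library (AAV-GSTA4 replicate 3) and the next (AAV-GFP replicate 2) lay close together, and AAV-GFP replicate 3 was lowest. edgeR estimated a log2 fold change of 0.08 ± 0.29 (SE) at an adjusted p of 0.936. It became -0.17 with library totals and -0.20 without AAV-GFP replicate 3. Relative to the median of all genes, however, Timp2 was at 0.15 with TMM scaling and 0.20 with library totals. The ratio of Timp3 to Timp2 within a library, each per kilobase, does not depend on scaling between libraries. It was 15.4, 13.9 and 16.4 in AAV-GFP and 35.9, 29.8, 32.1 and 27.7 in AAV-GSTA4. Every AAV-GSTA4 library was thus above 27 and every AAV-GFP library below 17.

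Timp1, a soluble inhibitor induced in many tissues by injury and cytokines, and Timp4 were scarce. Timp1 had 13 to 102 counts in AAV-GFP and 12 to 58 in AAV-GSTA4, or 0.624 to 3.94 CPM and 0.632 to 2.78 CPM. Timp4 had 31 to 91 and 9 to 38 counts, or 1.20 to 4.24 CPM and 0.432 to 1.82 CPM. Both ranges overlapped. The log2 fold changes were -0.58 ± 0.76 (SE) for Timp1 and -1.05 ± 0.70 (SE) for Timp4, with adjusted p of 0.785 and 0.562 in edgeR. Timp1 moved to -0.04 without AAV-GFP replicate 2 and to -1.03 without AAV-GFP replicate 3, and Timp4 to -0.60 without AAV-GFP replicate 1. Timp1 lies within Syn1 with no shared exon bases, and Timp4 within Syn2 with 90 shared bases, 1.53% of its exons.

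Among the membrane-type metalloproteinases, Mmp14 encodes MT1-MMP, which cuts collagen at the cell surface and activates pro-MMP2. Mmp14 lies on chromosome 14 (54431612 to 54445364, plus strand). It was at 13.0, 11.7 and 10.6 CPM in AAV-GFP and 7.05, 6.33, 3.70 and 8.19 CPM in AAV-GSTA4. All AAV-GFP libraries were above all AAV-GSTA4 libraries, and AAV-GSTA4 replicate 3 was lowest. The means were 11.8 ± 1.20 CPM for AAV-GFP (SD, n = 3) and 6.32 ± 1.90 CPM for AAV-GSTA4 (SD, n = 4). edgeR estimated a log2 fold change of -0.89 ± 0.34 (SE) at an adjusted p of 0.380, against 0.182 in DESeq2 and a range of 0.125 to 0.865 over all alternatives. Mmp15, which encodes MT2-MMP, was at 4.71, 4.36 and 7.30 CPM in AAV-GFP and 9.79, 1.82, 4.23 and 5.28 CPM in AAV-GSTA4. AAV-GSTA4 held both the highest and the lowest Mmp15 library, and the log2 fold change of -0.05 ± 0.54 (SE) had an adjusted p of 0.983 in edgeR.

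The gelatinases cut denatured collagen and basement membrane collagen. Mmp2 was at 11.3, 17.6 and 4.18 CPM in AAV-GFP and 10.4, 6.96, 14.9 and 9.70 CPM in AAV-GSTA4, so the AAV-GFP libraries held both the highest and the lowest value. The log2 fold change of Mmp2 was -0.08 ± 0.47 (SE), with an adjusted p of 0.965 in edgeR. It became 0.44 without AAV-GFP replicate 2 and -0.47 without AAV-GFP replicate 3. Mmp9, which is also made by neutrophils and macrophages, was at 1.86, 3.71 and 8.07 CPM in AAV-GFP and 4.95, 1.44, 0.823 and 0.738 CPM in AAV-GSTA4. The highest Mmp9 library was AAV-GFP replicate 3, and AAV-GSTA4 replicate 1 stood above the rest of its group and above AAV-GFP replicates 1 and 2. The log2 fold change of Mmp9 was -1.19 ± 0.79 (SE), with an adjusted p of 0.559 in edgeR. It moved to -0.50 without AAV-GFP replicate 3 and to -2.15 without AAV-GSTA4 replicate 1. The 9 macrophage and microglia markers summed to 425 to 697 CPM in AAV-GFP and 574 to 828 CPM in AAV-GSTA4, with 8 of 9 lower by fold change, Csf1r higher, and none at 0 in any library. Csf1r was the largest single part of this sum in every library and was higher in AAV-GSTA4 without overlap. The sum therefore does not show the direction of the other markers, each of which was lower by fold change. The part of these markers in the Mmp9 values was not tested.

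Htra1 encodes a secreted serine protease that cuts fibronectin, fibulins and proteoglycans. It lies on chromosome 7 (130936111 to 130985660, plus strand). It was at 22.3, 27.1 and 33.2 CPM in AAV-GFP and 15.3, 19.4, 6.46 and 11.5 CPM in AAV-GSTA4. The highest AAV-GSTA4 library, replicate 2, was below the lowest AAV-GFP library, replicate 1, by 2.94 CPM. The means were 27.6 ± 5.47 CPM for AAV-GFP (SD, n = 3) and 13.1 ± 5.50 CPM for AAV-GSTA4 (SD, n = 4). edgeR estimated a log2 fold change of -1.07 ± 0.36 (SE) at an adjusted p of 0.363, against 0.137 in DESeq2 and a range of 0.0732 to 0.865 over all alternatives. Htra1 had the lowest adjusted p among the members in limma-voom, at 0.0732.

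Adamts1 encodes a secreted protease that cuts versican and aggrecan and is inhibited by TIMP3. It lies on chromosome 16 (85793827 to 85803113, minus strand). It was at 44.0, 35.3 and 43.7 CPM in AAV-GFP and 14.4, 33.3, 9.05 and 29.7 CPM in AAV-GSTA4. The groups were separated by 2.04 CPM, and the AAV-GSTA4 libraries fell into a lower pair (replicates 1 and 3) and a higher pair (replicates 2 and 4). The means were 41.0 ± 4.93 CPM for AAV-GFP (SD, n = 3) and 21.6 ± 11.7 CPM for AAV-GSTA4 (SD, n = 4). edgeR estimated a log2 fold change of -0.92 ± 0.41 (SE) at an adjusted p of 0.417, against 0.279 in DESeq2 and a range of 0.212 to 0.865 over all alternatives. In the exact permutation test on log2 CPM, two-sided, p was 0.0571 for Mmp14, 0.0571 for Htra1 and 0.114 for Adamts1, where the smallest possible value is 0.0286.

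**Figure D3:**
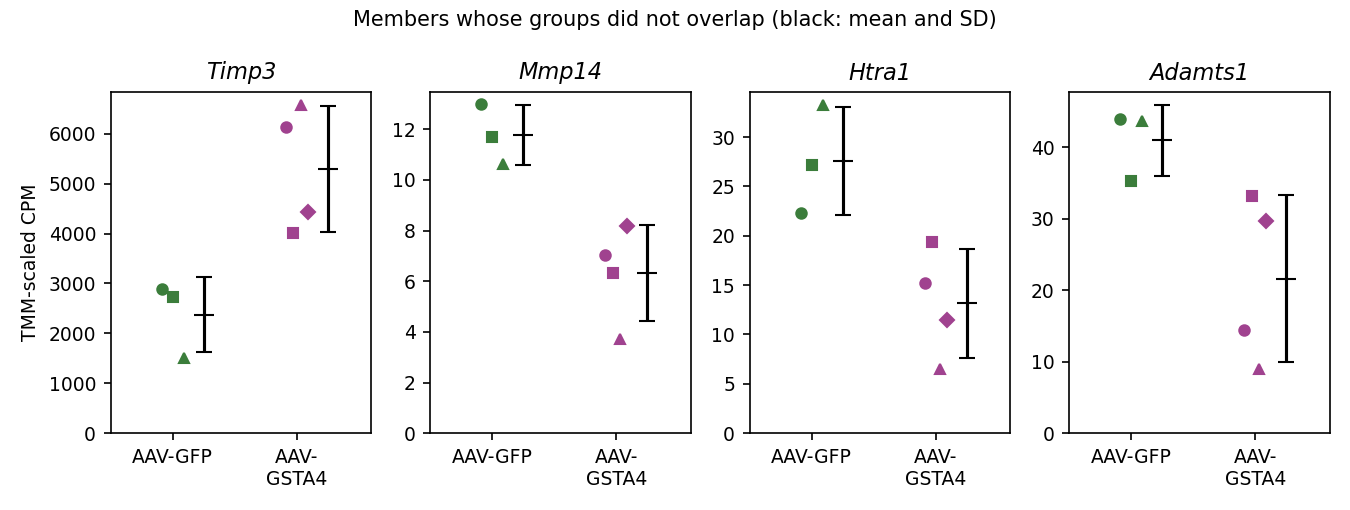
TMM-scaled CPM of Timp3, Mmp14, Htra1 and Adamts1 in each library, on linear axes from 0, with the mean and SD of each group in black. For each of these genes the AAV-GFP and AAV-GSTA4 points do not overlap, and AAV-GSTA4 replicate 3 is the highest for Timp3 and the lowest for the other three.

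The 3 lower proteases shared a most extreme library: AAV-GSTA4 replicate 3 was lowest of all 7 for Mmp14, Htra1 and Adamts1 and highest for Timp3. It was also the AAV-GSTA4 library with the least hGSTA4. Without it, the log2 fold changes were 1.04 for Timp3, -0.70 for Mmp14, -0.83 for Htra1 and -0.65 for Adamts1, each with an adjusted p of 0.703 to 0.706 in edgeR. Markers of ocular surface epithelium and of rods were lower beside these genes. Summed markers of ocular surface epithelium were 147, 155 and 246 CPM in AAV-GFP and 14.4, 103, 15.9 and 138.5 CPM in AAV-GSTA4, with 4 of 4 lower, and were lowest in the same pair of libraries as Adamts1. Rod photoreceptor markers, 12 of 12 of them lower, were at 16130 to 41468 CPM in AAV-GFP and 7794 to 14397 CPM in AAV-GSTA4. No marker of these lists was at 0 in any library, and their part in the differences was not tested. The summed markers of fibroblasts, of endothelium, and of pericytes and smooth muscle overlapped between the groups. Fibroblast markers, 3 of 6 lower, summed to 174 to 947 CPM in AAV-GFP and 299 to 634 CPM in AAV-GSTA4, and endothelial markers, 5 of 6 lower, to 29.7 to 137 and 31.8 to 52.4 CPM. Pericyte and smooth muscle markers, 3 of 6 lower, summed to 169 to 379 and 308 to 449 CPM. In every library Dcn made up most of the fibroblast sum, and Acta2 most of the pericyte and smooth muscle sum. The highest endothelial sum, in AAV-GFP replicate 3, was mostly Kdr at 104 CPM.

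Y-linked genes were high in AAV-GFP replicate 1 and AAV-GSTA4 replicates 3 and 4 and near 0 in the other 4 libraries. The members were also compared within these classes. For the 4 members whose groups did not overlap, the direction within each class was fixed in advance, so only the sizes are given. In the high class, 1 against 2 libraries, the log2 ratio of mean CPM was 0.93 for Timp3, -1.13 for Mmp14, -1.32 for Htra1 and -1.18 for Adamts1. In the low class, 2 against 2, it was 1.26, -0.74, -0.80 and -0.73. The other members gave, in the high class, Timp1 -0.83, Timp2 -0.04, Timp4 -1.40, Mmp2 0.12, Mmp9 -1.26 and Mmp15 0.01. In the low class they gave -0.42, 0.08, -0.95, -0.33, -0.88 and -0.01. Timp2, Mmp2 and Mmp15 thus differed in sign between the classes.

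**Figure D4:**
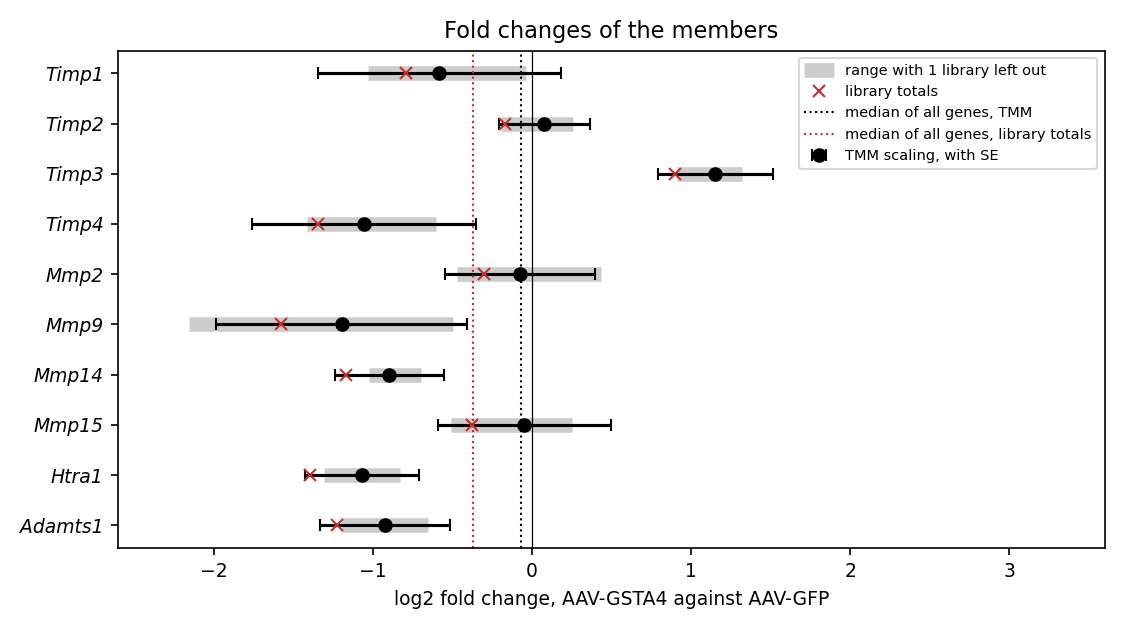
Log2 fold change of each member, AAV-GSTA4 against AAV-GFP, with TMM scaling and its SE (black), with library totals (red crosses), and over the fits that each left out 1 library (grey bars); dotted lines mark the median of all genes under each scaling. Timp3 stays above 0 and Mmp14, Htra1 and Adamts1 below 0 in all of these, whereas Timp2, Mmp2 and Mmp15 cross 0. The groups of Timp3, Mmp14, Htra1 and Adamts1 did not overlap, so leaving out 1 library could hardly change their sign.

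Inhibitor and protease levels were also set side by side within libraries. The summed level of Mmp2, Mmp9, Mmp14 and Mmp15 per kilobase was 6.94, 9.05 and 6.65 in AAV-GFP and 7.47, 3.87, 6.07 and 5.44 in AAV-GSTA4, and overlapped between groups. The level of Timp3 was 51.1, 37.0 and 28.0 times that sum in AAV-GFP and 101, 127, 133 and 99.9 times in AAV-GSTA4. For Timp2 the corresponding values were 3.32, 2.65 and 1.70 in AAV-GFP and 2.81, 4.27, 4.15 and 3.599 in AAV-GSTA4, which overlapped. These ratios are of RNA levels and carry no test.

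Of 84 further genes of matrix proteolysis, 66 were tested. At an unadjusted p under 0.05 there were 7 of them, or 10.6%, near the 11.9% of all tested genes: 6 were higher and 1 was lower. The split depended on scaling, since with library totals there were 5, of which 2 were higher. None passed the adjusted threshold in edgeR. Their median log2 fold change was -0.11, beside -0.07 for all tested genes. Of the other MMPs 9 of 19 were tested, with 4 higher, 5 lower and 0 at an unadjusted p under 0.05, and a median of -0.54. The smallest p-values in that list belonged to Mmp19, which did not overlap, at 2.93 ± 0.997 CPM for AAV-GFP (SD, n = 3) and 4.59 ± 0.907 CPM for AAV-GSTA4 (SD, n = 4), and to the stromelysin Mmp3, at 19.0 ± 11.4 CPM for AAV-GFP (SD, n = 3) and 11.8 ± 3.95 CPM for AAV-GSTA4 (SD, n = 4). Mmp3 moved from -0.68 to -0.26 without AAV-GFP replicate 1 and to -1.09 without AAV-GFP replicate 3. Mmp23, named after its values were seen, did not overlap in the opposite direction, with a log2 fold change of -1.01 and an unadjusted p of 0.194. Of the other ADAMTS proteases 15 of 18 were tested, with 4 higher, 11 lower and 0 at an unadjusted p under 0.05, and a median of -0.37. Adamts18 had the smallest p among the higher genes, but rested on AAV-GSTA4 replicate 2, at 34.1 CPM against 0.529 to 4.58 in the rest of its group, and its log2 fold change of 2.32 became 0.22 without that library. Adamts3 had the smallest p among the lower genes, at 16.7 CPM in AAV-GFP replicate 3 and 0.559 to 5.99 CPM in the other libraries, and its log2 fold change of -1.54 became -0.32 without AAV-GFP replicate 3.

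The ADAM sheddases, membrane proteases that release ectodomains, had 8 of 9 genes tested and a median of -0.26. Adam9 was higher with no overlap, at 76.2 ± 10.4 CPM for AAV-GFP (SD, n = 3) and 115 ± 13.4 CPM for AAV-GSTA4 (SD, n = 4), and its log2 fold change of 0.60 ± 0.20 (SE) had an adjusted p of 0.370 in edgeR. With library totals the estimate for Adam9 was 0.27 at an unadjusted p of 0.282. Relative to the median of all genes it was 0.64 there, against 0.67 with TMM scaling. Adam19 was at 4.32 ± 3.73 CPM for AAV-GFP (SD, n = 3) and 1.497 ± 0.825 CPM for AAV-GSTA4 (SD, n = 4), which overlapped, and its log2 fold change of -1.52 became -0.58 without AAV-GFP replicate 3. In the plasminogen activator system 7 of 9 were tested, 1 higher and 6 lower, with 0 at an unadjusted p under 0.05. Its members with the smallest p were Plau, the urokinase gene, at 0.246 and 0.602 CPM on average, and S100a10, a plasminogen receptor subunit, at 167 ± 83.1 CPM for AAV-GFP (SD, n = 3) and 110 ± 47.5 CPM for AAV-GSTA4 (SD, n = 4). Of the other HtrA proteases and cathepsins 7 of 8 were tested, 6 higher and 1 lower, with 0 at an unadjusted p under 0.05 and a median of 0.41. The lysosomal protease gene Ctsb was at 2012 ± 666 CPM for AAV-GFP (SD, n = 3) and 2671 ± 398 CPM for AAV-GSTA4 (SD, n = 4), and Ctss, the cathepsin of macrophages, at 394 ± 217 CPM for AAV-GFP (SD, n = 3) and 289.6 ± 97.7 CPM for AAV-GSTA4 (SD, n = 4).

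The inhibitors and regulators outside the TIMP family had a median of 0.63 over 13 genes, 9 higher and 4 lower. At an unadjusted p under 0.05, 4 were higher, against 5.27% of all tested genes, and 1 lower, against 6.63%; no test compared the list with other genes. Thbs1, which encodes the matrix protein thrombospondin-1, was at 265 ± 62.4 CPM for AAV-GFP (SD, n = 3) and 639 ± 145 CPM for AAV-GSTA4 (SD, n = 4), with no overlap. The estimate for Thbs1 on the log2 scale was 1.27 ± 0.28 (SE) at an adjusted p of 0.363 in edgeR and 0.00534 in DESeq2. The other three, named after their values were seen, were Lrp1, an endocytic receptor that clears TIMP3 and proteases, with a log2 fold change of 1.25, the broad protease inhibitor A2m with 0.77, and Pcolce, an enhancer of procollagen processing, with 0.63. Efemp1, which encodes the TIMP3-binding protein fibulin-3, was lower, at 166 ± 53.4 CPM for AAV-GFP (SD, n = 3) and 101 ± 31.9 CPM for AAV-GSTA4 (SD, n = 4), with an adjusted p of 0.413 in edgeR, and its log2 fold change of -0.72 became -0.47 without AAV-GFP replicate 2. Among 7 tested matrix substrates Nid1, for the basement membrane protein nidogen-1, had the smallest p, but it was at 238 CPM in AAV-GSTA4 replicate 2 and 8.16 to 20.9 CPM in every other library. Lens fibre markers were also highest in that library, at 128203 CPM against 3130 to 27131 CPM in the others, with 7 of 7 tested markers higher in AAV-GSTA4 and Lim2 at 0 in at least 1 library. Without replicate 2 the log2 fold change of Nid1 went from 2.44 to 0.24. Ncan, for the neural proteoglycan neurocan, had the smallest p among the lower substrates, at 2.38 ± 1.79 CPM for AAV-GFP (SD, n = 3) and 0.938 ± 0.547 CPM for AAV-GSTA4 (SD, n = 4), and its log2 fold change of -1.34 became -0.58 without AAV-GFP replicate 3.

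**Figure D5:**
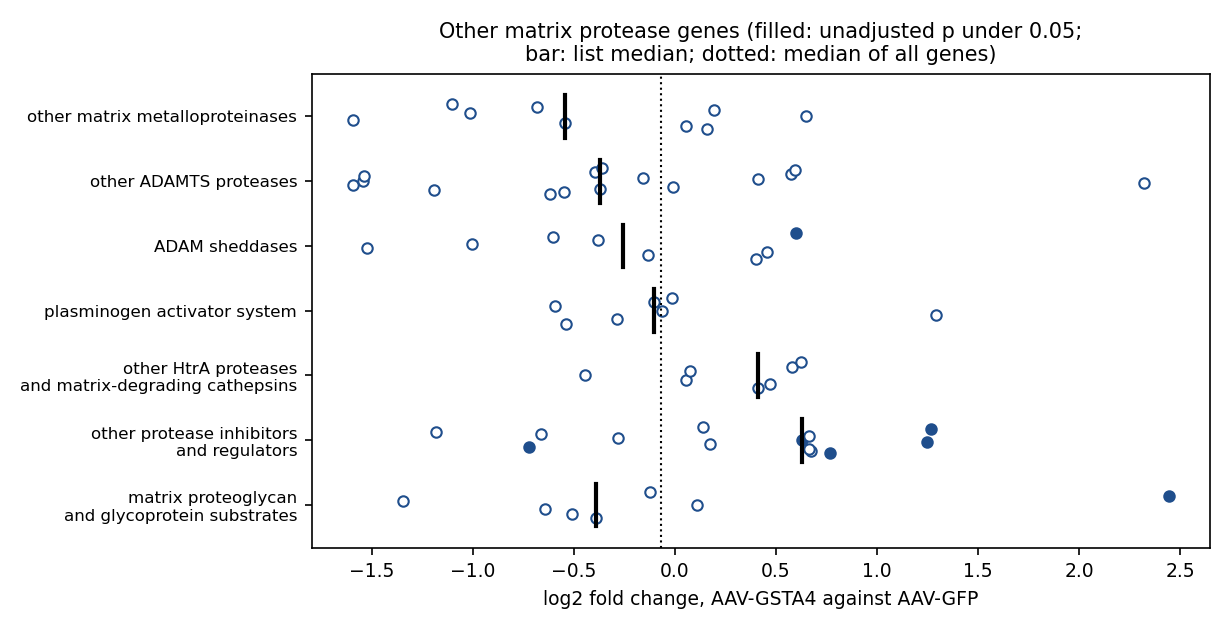
Log2 fold change, AAV-GSTA4 against AAV-GFP, of each tested gene in 7 lists of matrix proteolysis (filled circles: unadjusted p under 0.05; bars: list medians; dotted line: median of all genes). The list medians run from -0.54 for the other MMPs to 0.63 for the inhibitors and regulators, and 7 circles are filled in all.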

How the data were processed

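The authors deposited 1 table of raw read counts per gene symbol. The submitters' processing notes name STAR 2.7.1a, featureCounts 1.6.2 and mouse build GRCm38 (mm10), beside a human build. The annotation release, strand and multi-mapping settings are not given in the sources used here. Per the labels' protocols, full-length cDNA was amplified and fragmented with a transposase. The protocols mention no molecular identifiers, and PCR duplicates therefore count as reads. Columns were matched to libraries by library name and replicates are named by title.

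All 15075 genes that passed edgeR's expression filter were fitted together (edgeR 4.0.16, R 4.3.3: TMM scaling, group as the only factor, robust quasi-likelihood F-test, Benjamini-Hochberg adjustment over all of them, threshold 0.05). CPM is TMM-scaled. Log2 CPM for exact permutation tests used a prior count of 2. Each SE was taken as the log2 estimate over root F. Exon lengths and positions came from GENCODE M21, matched for 97.9% of rows. The test was tested on simulated counts. One marker list is not reported here. No 2 libraries agreed within sampling noise (chi-square per gene at least 57.5).

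The members, gene lists and marker lists were chosen with earlier results of these data known. Named genes were the members, the smallest p in each direction per list, and the 3 genes most correlated with Timp3; Lrp1, A2m, Pcolce and Mmp23 were added after their values were seen. Alternatives were 2 other scalings, 2 other filters, DESeq2 1.42.0, limma-voom (limma 3.58.1), replicate blocks and each library left out. A Y-linked covariate and a fit without both AAV-GFP replicate 3 and AAV-GSTA4 replicate 2 were chosen after seeing the data.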

Additional observations from a re-analysis of the deposited data

Results flagged for a closer look

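Mmp9 was the 1 of 20 results examined, covering the 10 members and 10 marker sums in AAV-GSTA4, in which a library stood apart. The gap between replicate 1, at 4.95 CPM, and the next library, at 1.44 CPM, was 0.833 of the group's range. That exceeds Dixon's 95% critical value for 4 libraries. The lens fibre sum, with replicate 2 at 128203 CPM, had a gap of 0.819 of its range and fell just short of that value. Chance gives about 5% of such results. Groups of 3 libraries are too small for this comparison.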

How the results depend on the processing

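Timp3 stayed higher, and Timp1, Timp4, Mmp9, Mmp14, Htra1 and Adamts1 stayed lower, under every alternative that gave a value, although Timp1 ranged from -1.42 to -0.04. For Timp3, Mmp14, Htra1 and Adamts1, whose groups did not overlap, leaving out 1 library could hardly change the sign. Timp4 was not tested with at least 10 counts in every library. Of 169 member values under an alternative, 16 changed sign, all in Timp2, Mmp2 or Mmp15. With library totals and limma-voom Timp2 was -0.17 and -0.14, where the median of all genes was -0.37 and -0.02. With limma-voom Mmp15 was 0.0228. Leaving out 1 library, log2 fold changes ranged from -0.20 to 0.26 for Timp2, from -0.47 to 0.44 for Mmp2 and from -0.51 to 0.25 for Mmp15. In particular, without AAV-GFP replicate 3 Mmp15 was 0.22, without AAV-GSTA4 replicate 2 Mmp2 was 0.09 and Mmp15 0.25, and without AAV-GSTA4 replicate 3 Timp2 was -0.02 and Mmp15 0.05. Leaving out 1 library, Ctss ranged from -0.80 to 0.0135 (without AAV-GFP replicate 1) and Nid1 from 0.24 to 2.83. With the Y-linked covariate Mmp15 was 0.00215. Without both AAV-GFP replicate 3 and AAV-GSTA4 replicate 2, Timp2 was -0.10, Mmp15 0.50, Nid1 -0.0104, Ctss -0.82 and genes at an unadjusted p under 0.05 numbered 2288.

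Genes past the adjusted threshold numbered 199 of 19446 in DESeq2, with Timp3 the only member (1.17, adjusted p 0.0262). They numbered 1 in each fit with a replicate block, 0 to 1 with 1 library left out, and 0 in the other alternatives. DESeq2 gave no adjusted p for Timp1, Timp4 and Mmp9. At an unadjusted p under 0.05 there were 3293 genes in limma-voom, 21.8% of all. With 1 library left out there were from 1032 (6.88% of all, without AAV-GSTA4 replicate 3) to 1987 (12.7%, without AAV-GFP replicate 1). With library totals 2400 genes had such a p, 11.1% of them higher, against 44.3% of 1794 with TMM. Members at such a p numbered 5 in limma-voom (Timp3, Mmp9, Mmp14, Htra1 and Adamts1). With median-of-ratios scaling they numbered 3, without Adamts1, against 12.0% of all genes. With 1 library left out they numbered 2 to 4. They were 2, Timp3 and Htra1, without AAV-GFP replicate 1 (12.7% of all genes), AAV-GFP replicate 2 (10.5%) or AAV-GSTA4 replicate 3 (6.88%). The further matrix genes at such a p numbered 12 in DESeq2 (7 higher), 12 in limma-voom, 12 without both doubted libraries, 4 with the Y-linked covariate and 4 to 10 with 1 library left out (4 without AAV-GSTA4 replicate 4). The causes were not tested.

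Equal replicate numbers did not pair the libraries: deviations from the group means correlated at -0.09, 0.00 and 0.01 by title number and at -0.09, 0.01 and -0.13 by library number. With a replicate block by title number 849 genes (5.63% of all), 3 members (Mmp14, Htra1 and Adamts1, not Timp3) and 4 further matrix genes (2 higher) had an unadjusted p under 0.05. Mmp2 was 0.0918 in that fit. With a replicate block by library number there were 1148 (7.62% of all), 3 (Timp3, Htra1 and Adamts1) and 4 (2 higher), and Mmp2 was 0.27 and Mmp15 0.18. Adam9 lost its unadjusted p under 0.05 with either block. Depth limits Timp1, Timp4 and Mmp9 most, at 9 to 168 counts per library.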
